A study of Arabidopsis thaliana with 6 samples.

Results

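The plant cuticle is a layer of lipid that seals the outer wall of every aerial epidermal cell. It is built from cutin, a polyester of hydroxylated fatty acids, and from waxes, which are alkanes, alcohols and esters of very long chains. Elongase complexes in the endoplasmic reticulum lengthen the acyl chains, separate enzymes turn them into alkanes or alcohols, and ABC transporters and lipid transfer proteins carry the products to the surface. In the shoot apex these genes are active in the outermost cell layer, and loss of some of them lets young organs fuse.

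10 cuticle genes of Arabidopsis thaliana were chosen by locus: FDH (AT2G26250), CER6 (AT1G68530), CER1 (AT1G02205), CER3 (AT5G57800) and CER4 (AT4G33790) of acyl chain elongation and wax synthesis, LACS2 (AT1G49430) of cutin synthesis, the exporters ABCG11 (AT1G17840), CER5 (AT1G51500) and LTPG1 (AT1G27950), and the regulator SHN1 (AT1G15360). These are 10 of the 32833 loci counted, and all 10 were among the 19719 genes that passed the filter on low counts. They were followed in RNA from dissected inflorescence meristems in 2 groups of 3 libraries. The first group is labelled VGD1 and has the genotype pCLV3>>erTurquoise, >>VGD1, in which the CLV3 promoter of the stem cells drives, through the dexamethasone-gated activator GR-LhG4, a fluorescent reporter and the pectin methylesterase VGD1. The second, Control, is pCLV3>>erTurquoise with the reporter alone, and both received dexamethasone. The concentration is given as 30 µM in one label and 30 mM in another, and the interval to harvest as 72 hours in one text and 48 hours in another. Plants had stems of 15 cm, and primordia were taken off up to flower stage 3 to 4. The driver acts in stem cells, whereas the libraries hold whole dissected apices. Nothing in the labels says whether replicates were separate batches of plants, so the p-values cover only how far these libraries differ, which may be technical.

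Total counts ran from 18432365 to 19394881 in the libraries labelled VGD1 and from 6638772 to 24437872 in the Control libraries, with Control replicate 3 the shallowest. VGD1 itself (AT2G47040) stood at 6.59, 7.92 and 7.11 CPM (counts scaled to a common library size) in libraries labelled VGD1 and at 11.4, 12.7 and 4.80 CPM in Control libraries. It did not mark the induced group (log2 fold change -0.57, SE 0.25, edgeR adjusted p = 0.372), so every direction given here is that of libraries labelled VGD1 against Control. Epidermal expression was described with 8 marker genes, whose detection is given by whole apices and is no test of identity. All 8 were detected, at a summed level of 3413 to 3872 CPM in libraries labelled VGD1 and 3459 to 3940 CPM in Control libraries. The most abundant, LTP1, stood at 1496 to 2147 and 1732 to 2358 CPM and was the 1 marker below 0 (log2 fold change -0.21). The other 7 were above 0, the median of the 8 was 0.16, and none was called. For 3 of the 8 (37.5%) all libraries labelled VGD1 were higher, where the share over all genes was 8.17%. At an unadjusted edgeR p under 0.05 there were 2, both higher, where 5.21% of all genes were higher. Of 8 shoot meristem markers 7 were tested, 5 above 0 and none called. CLV3, whose promoter drives the construct, was too low to be tested, with 3, 8 and 11 counts in libraries labelled VGD1 and 0 counts in each Control library. Markers of tissue outside the meristem were also present, and their values are given below beside the results they move with.

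The promoters of FDH, ABCG11 and LTPG1 hold the L1 box, a motif known to be bound by the HD-ZIP IV proteins that specify the epidermis. The 300 bases before the annotated start of each gene were searched on both strands in the TAIR10.1 genome, a build name that differs from the TAIR10 of the processing notes; the count tables hold no coordinates. Of the 10 windows 3 held TAAATGCA or TAAATGTA, as did 8 of 49 windows of other cuticle genes (16.3%) and 1511 of 27443 windows of all protein-coding genes (5.51%). The stretches around the boxes are shown 5′ to 3′ on the strand of the gene, with the boxes in capitals. They lie at chr2:11173295-11173362 (minus strand, FDH), chr1:6142290-6142392 (plus strand, ABCG11) and chr1:9740211-9740278 (plus strand, LTPG1).
FDH: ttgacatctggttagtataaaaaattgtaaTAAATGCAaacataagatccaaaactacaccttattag
ABCG11: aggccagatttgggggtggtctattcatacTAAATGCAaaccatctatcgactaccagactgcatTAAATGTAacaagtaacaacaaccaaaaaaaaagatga
LTPG1: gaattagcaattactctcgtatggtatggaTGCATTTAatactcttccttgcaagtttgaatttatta
In FDH the box begins 54 bases before the start, in ABCG11 the boxes begin 82 and 47 bases before it, and in LTPG1 the box lies 267 bases before it on the opposite strand. The GCC box GCCGCC, a motif known for the ERF family, to which SHN1 belongs, was in 0 of the 10 windows, in 2 of the 49 and in 2.26% of all windows. A match is a description of letters and not evidence of binding.

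None of the 10 cuticle genes passed the test between the groups (edgeR quasi-likelihood test, threshold 0.05 on the p adjusted over 19719 genes). Over all genes tested, 0.416% were called. At an unadjusted edgeR p under 0.05 there was 1 gene of the 10, LACS2, where all genes gave 13.6%. DESeq2 and limma-voom each called 0 of 10, where over all genes they called 421 of 25459 and 69 of 19719. Each had 1 of the 10 at an unadjusted p under 0.05, where 2363 of 25459 and 2756 of 19719 genes were. The 10 log2 fold changes lay between -0.35 and 0.01 with a median of -0.11, beside a median of 0.00 over all genes tested, and 9 of the 10 were below 0, as were 50.1% of all genes. Without Control replicate 1, the highest library for 5 of the 10, 5 of 10 were below 0 and the median was -0.02. When any other single library was left out, 8 to 10 of 10 were below 0, with medians from -0.18 to -0.08. Ranges of the groups did not overlap for 1 gene, CER1, where the share over all genes was 17.2% (8.17% with all libraries labelled VGD1 higher and 9.02% with all lower). In bulk tissue a change in the number of epidermal cells and a change in RNA per cell cannot be told apart.

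Levels between genes were compared as CPM per kilobase of exon, over all 6 libraries. LTPG1 (208 CPM per kb), CER1 (206), CER3 (201), FDH (172) and CER6 (155) formed the upper end, and each overlapped its neighbour in this order over the range of the libraries. LACS2 averaged 86.6 CPM per kb and lay apart from CER6, as its highest library reached 104 and the lowest library of CER6 stood at 132. LACS2, ABCG11 (67.2), CER4 (65.1) and CER5 (47.7) again overlapped neighbour by neighbour. SHN1, the only transcription factor gene among the 10, was lowest at 20.2 CPM per kb, and its highest library (26.7) was below the lowest of CER5 (42.7). With coding length in place of exon length 6 of the 10 genes kept their rank, so the order within the upper group is not firm. Every stretch of 50 bases in the exons of the 10 genes occurs once in the TAIR10.1 genome. ABCG11 and LTPG1 overlap genes on the opposite strand in that annotation. Since no source used here states whether counting was by strand, reads of such pairs may be mixed.

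**Figure D1:**
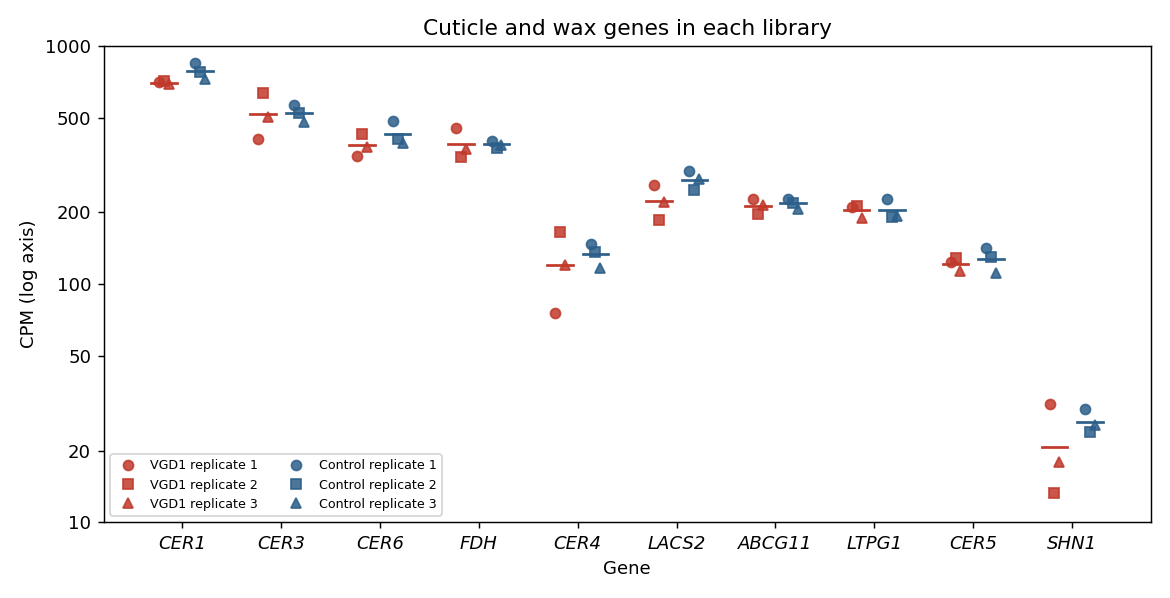
Level of the 10 cuticle and wax genes in CPM (log axis), with 1 point per library and a bar at the mean of 3, the libraries labelled VGD1 left of Control for each gene. CER1 is lower in all 3 libraries labelled VGD1, and CER4 and SHN1 are spread most widely among those libraries, from 75.6 to 166 and from 13.2 to 31.3 CPM.

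Among the genes of acyl chain elongation, FDH and CER6 both encode 3-ketoacyl-CoA synthases, the condensing enzymes of the elongase. FDH, named for the fused organs of its fiddlehead mutant, stood at 452, 343 and 370 CPM in libraries 1 to 3 labelled VGD1 and at 400, 373 and 386 CPM in Control libraries 1 to 3. The Control values lay wholly inside the range of the libraries labelled VGD1, and the log2 fold change was 0.01 (95% interval -0.24 to 0.26, edgeR adjusted p = 0.989). CER6, which makes the longest acyl chains of the wax, stood at 345, 428 and 377 CPM in libraries labelled VGD1 and at 482, 406 and 390 CPM in Control libraries. Replicate 1 labelled VGD1 was the lowest of the 6 and Control replicate 1 the highest, with overlap between the groups (log2 fold change -0.15, 95% interval -0.41 to 0.10, edgeR adjusted p = 0.625). These intervals allow changes from 0.845 to 1.19-fold for FDH and from 0.752 to 1.08-fold for CER6.

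CER1 and CER3 act together in making alkanes. CER1 was even among the libraries labelled VGD1, at 704, 710 and 691 CPM, and stood at 845, 778 and 723 CPM in Control libraries. The 3 libraries labelled VGD1 were below all 3 Control libraries. The means were 702 ± 9.65 and 782 ± 60.8 CPM (SD, n = 3 each), and the log2 fold change of -0.16 (SE 0.09) did not pass the test (edgeR adjusted p = 0.517). CER3 behaved otherwise, with 405, 637 and 504 CPM in libraries labelled VGD1 and 566, 521 and 480 CPM in Control libraries. Its lowest and highest libraries were both in the group labelled VGD1, replicates 1 and 2, and the means of 515 ± 116 and 523 ± 43.0 CPM (SD, n = 3 each) were nearly equal (log2 fold change -0.02, 95% interval -0.37 to 0.32, edgeR adjusted p = 0.970).

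CER4, the reductase that makes primary alcohols, had the same order of libraries as CER3 with a wider spread. It stood at 75.6, 166 and 120 CPM in libraries labelled VGD1 and at 148, 137 and 117 CPM in Control libraries. Replicate 1 labelled VGD1 was at 0.455 times replicate 2, and the 3 Control libraries lay between them. The coefficient of variation was 37.5% in libraries labelled VGD1 and 11.7% in Control libraries. Of these genes CER4 had the least precise estimate after SHN1 (log2 fold change -0.16, 95% interval -0.81 to 0.50, edgeR adjusted p = 0.866), and its sign turned to 0.09 without replicate 1 labelled VGD1.

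LACS2 activates fatty acids for cutin, and was the gene of the 10 with the smallest p. It stood at 260, 185 and 222 CPM in libraries labelled VGD1 and at 297, 248 and 277 CPM in Control libraries. Replicates 2 and 3 labelled VGD1 were below every Control library, and replicate 1 was inside the Control range. Means were 223 ± 37.5 and 274 ± 24.9 CPM (SD, n = 3 each), a log2 fold change of -0.30 (SE 0.13) with an unadjusted p of 0.0420 and an edgeR adjusted p of 0.342. The log2 fold change was -0.17 without replicate 2 labelled VGD1. Its unadjusted p was 0.0888 to 0.187 in the 4 edgeR comparisons that left out Control replicate 1 or 3 or replicate 2 or 3 labelled VGD1. Without replicate 1 labelled VGD1 the log2 fold change was -0.43 (edgeR unadjusted p = 0.00383, adjusted p = 0.126). Without Control replicate 2 it was -0.37 (edgeR unadjusted p = 0.0329, adjusted p = 0.642).

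The exporters differed little between the groups. ABCG11, a half-transporter needed for both wax and cutin, stood at 228, 196 and 215 CPM in libraries labelled VGD1 and at 228, 220 and 207 CPM in Control libraries. CER5 (ABCG12), a half-transporter of wax, stood at 124, 129 and 113 CPM in libraries labelled VGD1 and at 141, 130 and 112 CPM in Control libraries. LTPG1, a lipid transfer protein anchored at the cell surface, stood at 211, 213 and 190 CPM in libraries labelled VGD1 and at 228, 192 and 193 CPM in Control libraries. All 3 overlapped between the groups, with log2 fold changes of -0.03 for ABCG11, -0.07 for CER5 and 0.00 for LTPG1 (edgeR adjusted p from 0.831 to 0.995). The widest of their 95% intervals, that of CER5, reached from -0.30 to 0.16.

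SHN1 (WIN1), an AP2/ERF activator of cuticle genes, had the lowest level and the widest spread. It stood at 31.3, 13.2 and 17.9 CPM in libraries labelled VGD1 and at 29.8, 24.0 and 25.6 CPM in Control libraries. Replicates 2 and 3 labelled VGD1 were below all Control libraries and replicate 1 was above them. The counts behind these values ran from 254 to 626 in libraries labelled VGD1 and from 171 to 673 in Control libraries. The coefficient of variation was 45.0% in libraries labelled VGD1 and 11.4% in Control libraries, and the log2 fold change of -0.35 (SE 0.30) had an edgeR adjusted p of 0.683. Without replicate 1 labelled VGD1 it was -0.77 (edgeR adjusted p = 0.0644), and without replicate 2 labelled VGD1 it was -0.09 (edgeR adjusted p = 0.899).

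**Figure D2:**
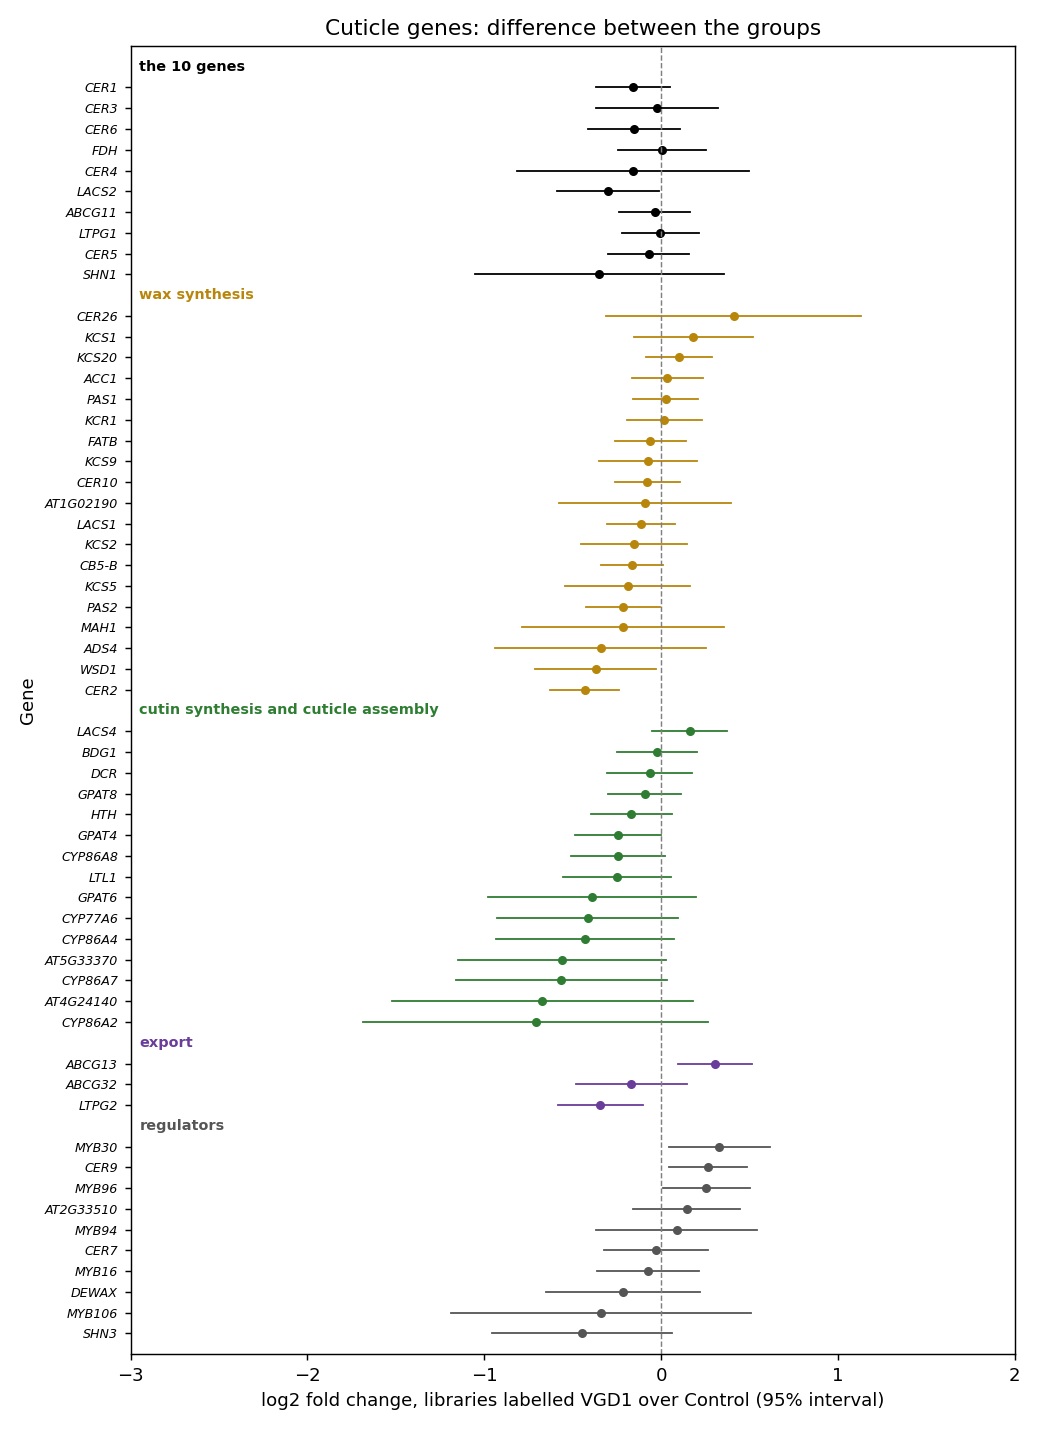
log2 fold change of libraries labelled VGD1 over Control with its 95% interval, for the 10 genes and for the 47 tested genes of the wider cuticle list by role. No gene in the plot passed the test over all genes, 14 of 15 cutin genes lie left of 0, and CER2 has the smallest p (log2 fold change -0.43).

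The wider list held 49 other cuticle genes, of which 47 were tested and none was called by edgeR, where 0.416% of all genes were. At an unadjusted p under 0.05 there were 9, of which 4 were higher and 5 lower, where 5.21% of all genes were higher and 8.36% lower at that p. DESeq2 called 1 of 48 genes of the list, where it called 421 of 25459 over all genes. By limma-voom 0 of 47 were called, where 69 of 19719 were over all genes. Of the 47 genes, 8 (17.0%) had groups that did not overlap, near the 17.2% of all genes. The median log2 fold change was -0.15, with 34 of 47 genes below 0, beside 0.00 and 50.1% over all genes tested.

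Of 19 wax synthesis genes, 13 were below 0 (median -0.09). CER2, a protein of the acyltransferase family that lets the elongase make the longest chains, came nearest to a call. It stood at 53.2, 57.9 and 51.6 CPM in libraries labelled VGD1 and at 76.2, 70.6 and 72.6 CPM in Control libraries. The groups lay apart with little spread in either (log2 fold change -0.43, SE 0.09, edgeR adjusted p = 0.0753). DESeq2 called CER2 (adjusted p = 0.00950), which was the call of that tool in the list, and over all alternatives its adjusted p ran from 0.00950 to 0.309. CER2 overlaps AT4G07275 and AT4G24520 on the opposite strand. The most abundant wax synthesis genes per kilobase were MAH1, the midchain alkane hydroxylase, and LACS1, an acyl-CoA synthetase. MAH1 followed CER3 and CER4, at 301, 627 and 468 CPM in libraries labelled VGD1 and 578, 545 and 497 CPM in Control libraries (edgeR adjusted p = 0.770). LACS1 stood at 617 ± 30.1 CPM in libraries labelled VGD1 and 667 ± 7.27 CPM in Control libraries (SD, n = 3 each; edgeR adjusted p = 0.635). Of the relatives of CER6 and CER1, KCS5 averaged 20.8 CPM in libraries labelled VGD1 and 23.8 CPM in Control libraries (edgeR adjusted p = 0.666). AT1G02190, annotated in the fatty acid hydroxylase superfamily, averaged 168 CPM in libraries labelled VGD1 and 180.0 CPM in Control libraries (edgeR adjusted p = 0.905).

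Of 15 tested genes of cutin synthesis and cuticle assembly, 14 were below 0 (median -0.25, range -0.71 to 0.16), with 1 at an unadjusted p under 0.05. With replicate 1 labelled VGD1 left out the median was -0.41 and 14 of 15 were below 0; with replicate 2 of that group left out it was -0.17 and 13 of 15 were. CYP77A4 had no count in any library. GPAT4, an acyltransferase of cutin synthesis, had the smallest p and stood at 116 ± 15.0 CPM in libraries labelled VGD1 and 137 ± 10.4 CPM in Control libraries (SD, n = 3 each; edgeR adjusted p = 0.365). The most abundant per kilobase were AT5G33370, annotated in the GDSL lipase superfamily, and DCR, an acyltransferase needed for cutin. AT5G33370 stood at 980, 458 and 677 CPM in libraries labelled VGD1 and at 1110, 957 and 1053 CPM in Control libraries (log2 fold change -0.56, SE 0.25, edgeR adjusted p = 0.395). DCR stood at 685 ± 83.9 CPM in libraries labelled VGD1 and 717 ± 19.5 CPM in Control libraries (SD, n = 3 each; edgeR adjusted p = 0.857). Without replicate 1 labelled VGD1, AT5G33370 and the cutin acyltransferase gene GPAT6 were called lower, with log2 fold changes of -0.87 and -0.72 (edgeR adjusted p = 0.0499 and 0.0346). Among alternatives, these calls came only from that comparison. It called 165 of 20046 genes lower over all genes, against 62 of 19719 in the main comparison.

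Of the 47 genes 13 were above 0: 6 of wax synthesis, 1 of cutin synthesis, 1 of export and 5 regulators. Among the 3 export genes outside the 10, ABCG13, a half-transporter of floral cuticles, stood at 71.8, 72.1 and 82.6 CPM in libraries labelled VGD1 and at 62.0, 57.6 and 64.2 CPM in Control libraries (log2 fold change 0.31, SE 0.09, edgeR adjusted p = 0.205). LTPG2, the relative of LTPG1, stood at 92.9, 91.6 and 74.4 CPM in libraries labelled VGD1 and at 119, 105 and 104 CPM in Control libraries (log2 fold change -0.34, SE 0.11, edgeR adjusted p = 0.214). For both genes the groups did not overlap, and neither passed the test. ABCG32, an exporter of cutin precursors, averaged 258 CPM in libraries labelled VGD1 and 289.6 CPM in Control libraries (edgeR adjusted p = 0.665).

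Of 10 tested regulators 5 were above 0 and 5 below. CER9, a ubiquitin ligase that restrains cuticle lipid synthesis, had the smallest p among them and stood at 190 ± 17.4 CPM in libraries labelled VGD1 and 157 ± 12.1 CPM in Control libraries (SD, n = 3 each; edgeR adjusted p = 0.274). MYB96, an activator of wax genes in drought, stood at 83.6 ± 3.85 CPM in libraries labelled VGD1 and 69.3 ± 10.4 CPM in Control libraries (SD, n = 3 each; edgeR adjusted p = 0.345). SHN2 had 6, 10 and 25 counts in libraries labelled VGD1 and 2, 6 and 0 counts in Control libraries, and was too low to be tested. SHN3 stood at 12.9, 13.4 and 12.6 CPM in libraries labelled VGD1 and at 14.7, 24.0 and 11.7 CPM in Control libraries (edgeR adjusted p = 0.433). Per kilobase of exon SHN1 averaged 20.2 CPM over the 6 libraries, SHN3 13.9 and SHN2 0.449. The ranges of SHN1 (11.3 to 26.7) and SHN3 (10.9 to 22.4) overlapped.

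**Figure D3:**
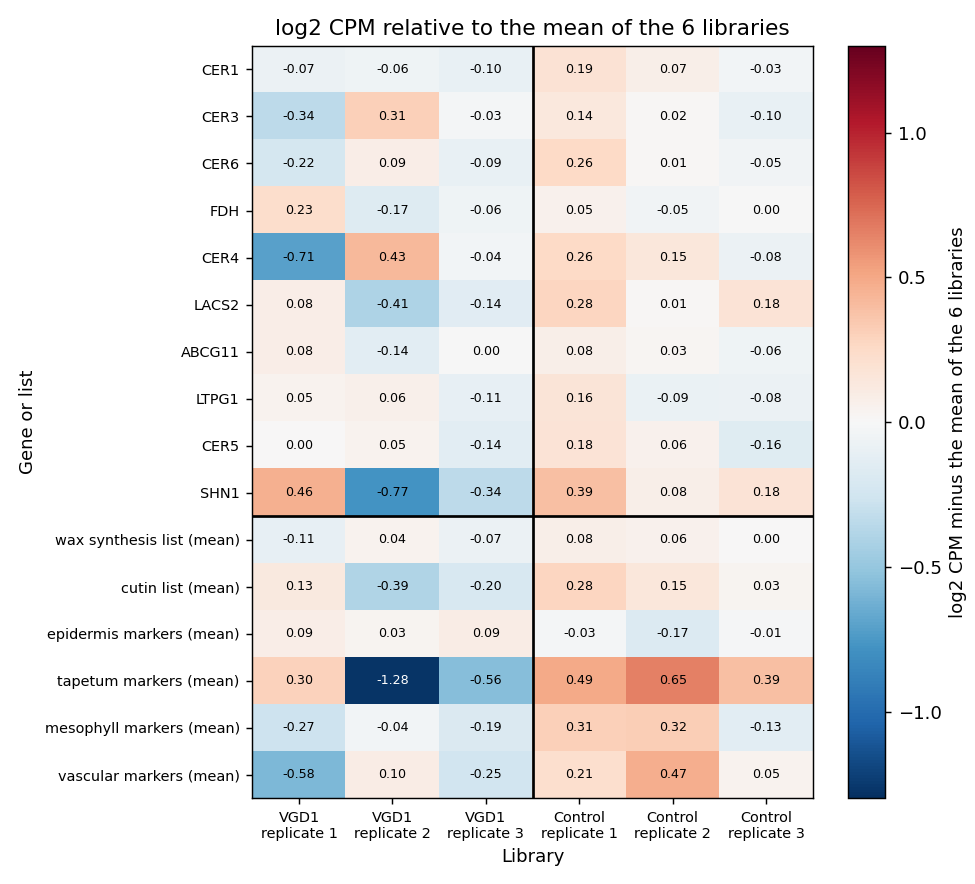
log2 CPM relative to the mean of the 6 libraries, for the 10 genes (above the line) and for the means of lists (below it), with libraries labelled VGD1 left of Control. In replicates 1 and 2 labelled VGD1, CER4 stands at -0.71 and 0.43 and SHN1 at 0.46 and -0.77, and the tapetum markers at 0.30 and -1.28.

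The largest contrasts among the 10 genes, those of SHN1 and CER4, lay within the group labelled VGD1, between its replicates 1 and 2. This did not hold for every gene. LACS2 and CER6 had their widest gaps between Control replicate 1 and a library labelled VGD1. CER4, CER3 and CER6 were lower in replicate 1 than in replicate 2 by 1.14, 0.65 and 0.31 on the log2 scale, whereas SHN1, LACS2, FDH and ABCG11 were higher in replicate 1. Replicate 3 was between them for 7 of the 10 genes, as for 39.8% of all genes tested. CER1, CER5 and LTPG1 differed by under 0.05 between replicates 1 and 2.

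Of 15 cutin genes in the wider list 13 were higher in replicate 1 than in replicate 2 labelled VGD1, with a median log2 difference of 0.39. Of 19 wax synthesis genes 6 were higher in replicate 1 (median -0.11), and over all genes tested 9859 of 19719 were (median 0.00). MAH1 and AT5G33370, described above, show these opposite orders, with replicate 1 lowest for MAH1 and highest for AT5G33370.

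Between replicates 1 and 2 labelled VGD1, markers of tissues outside the meristem dome moved with these orders. All 10 tapetum and anther markers were higher in replicate 1 than in replicate 2 labelled VGD1 (median log2 difference 1.59), and their summed level was 1320, 430 and 667 CPM in libraries labelled VGD1 and 1377, 1542 and 1351 CPM in Control libraries. All 9 vascular and stem markers were lower in replicate 1 than in replicate 2 (median -0.72), with sums of 214, 322 and 257 CPM in libraries labelled VGD1 and 355, 423 and 315 CPM in Control libraries. All 8 mesophyll markers were also lower in replicate 1 (median -0.19), with sums of 11367 to 13717 CPM in libraries labelled VGD1 and 12958 to 17509 CPM in Control libraries. Between the groups, all 10 tapetum, all 9 vascular and all 8 mesophyll markers had a log2 fold change below 0, as did 50.1% of all genes tested. Their medians were -0.85, -0.54 and -0.30, and none was called. Groups did not overlap for 60.0%, 55.6% and 37.5% of them, where the share over all genes was 17.2%. No marker of these lists was at 0 in every library. Replicate 1 labelled VGD1 and the 3 Control libraries were highest in tapetum markers, and the same libraries were highest in SHN1, in LACS2 and in the summed cutin list. The cutin sum was 2539 to 3847 CPM in libraries labelled VGD1 and 3647 to 3984 CPM in Control libraries. The order within these libraries differed, as Control replicate 2 was highest of them in tapetum markers and lowest of them in SHN1, LACS2 and the cutin sum. Among libraries labelled VGD1, replicate 1 had the lowest vascular markers and the lowest CER3 and CER4. Over all 6 libraries the match did not hold. Replicate 2 labelled VGD1 was highest in CER3 and CER4 but below Control replicates 1 and 2 in vascular markers. The part of these tissues in the results was not tested.

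Markers of specialised epidermal cells gave a further reading. The 6 stomatal lineage markers were all lower in replicate 1 than in replicate 2 labelled VGD1 (median -0.42), with sums of 61.5, 87.6 and 77.9 CPM in libraries labelled VGD1 and 75.9, 67.1 and 76.5 CPM in Control libraries. Of 8 general epidermis markers 6 were higher in replicate 1 (median 0.12). Of 4 trichome markers 3 were higher in replicate 1 (median 0.54), and the 4 summed to 21.6 to 29.5 CPM in libraries labelled VGD1 and to 17.2 to 25.1 CPM in Control libraries.

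**Figure D4:**
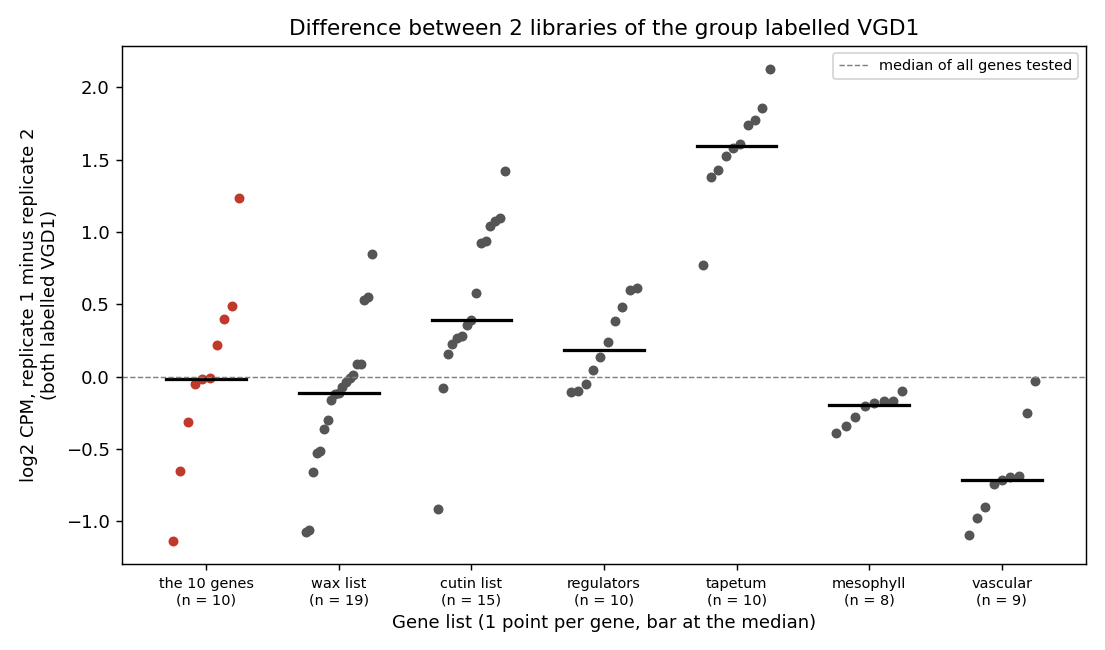
Difference in log2 CPM between replicates 1 and 2 labelled VGD1, with 1 point per gene, a bar at the median of each list and a dashed line at the median of all genes tested. The 10 genes spread from -1.14 to 1.23 around a median of -0.01, the cutin list has its median at 0.39, and the tapetum and vascular lists at 1.59 and -0.72.

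The mean profile of the 10 genes averages genes of opposite order, such as CER4 and SHN1. It stood at -0.04, -0.06 and -0.10 in libraries labelled VGD1 and at 0.20, 0.03 and -0.02 in Control libraries, as log2 CPM relative to the mean of the 6. The 5 genes with the nearest profile, by the root mean square difference over 6 libraries, were AT1G69800, AT5G47830, AT1G45230, AT4G18970 and AT1G65020, at differences of 0.029 to 0.038 on the log2 scale. All 5 were also highest in Control replicate 1, which is set by choosing them for likeness to this profile and is no separate result. The median root mean square deviation of a gene from its own mean was 0.14 for the 10 genes and 0.18 for all genes tested.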

How the data were processed

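RNA of 6 libraries (3 labelled VGD1, 3 Control, grouped by title) was sequenced after poly(A) selection, per the labels' protocols. Per library, the authors deposited a table of unnormalised read counts for 32833 loci. RNA STAR was the aligner, per the file headers. The submitters' processing notes name TAIR10 and DESeq2 but no version or role. How reads were counted, and whether by strand, is not given in the sources used.

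Groups were compared with edgeR 4.0.16 under R 4.3.3 (TMM, filterByExpr with a minimum count of 10 and total of 15, robust glmQLFit, two-sided quasi-likelihood F test, Benjamini-Hochberg over 19719 genes, threshold 0.05). Each standard error is the absolute log2 fold change over the root of F, and 95% intervals come from a t distribution. CPM carry the TMM factors; log2 CPM in profiles has a prior count of 2. A count of 0 allows 3 counts, 0.452 CPM in Control replicate 3 and 0.123 to 0.163 CPM elsewhere, for counting error only. Within groups the mean chi-square per gene between libraries was 8.82 to 22.4, so none was a copy of another. The edgeR step was tested on simulated data.

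The 10 genes and all lists were chosen with earlier results of these data known. Named genes are the 10, VGD1, relatives of the 10 in the wider list, and per role the gene with the smallest p and the 2 highest per kilobase; GPAT6 was named after its values were seen. Gene names, lengths and promoter sequences came from RefSeq (TAIR10.1), which held 32548 of the 32833 loci; the listed name was found for 10 of 10 genes and 43 of 49 of the wider list, and the others carry the annotation's symbol. Alternatives were RLE factors, library totals, 2 other filters, DESeq2 1.42.0, limma-voom (limma 3.58.1), a replicate block and leaving out each library. Tables and plots used Python 3.11.15, pandas 2.3.3 and matplotlib 3.10.9.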

Additional observations from a re-analysis of the deposited data

How the results depend on the processing

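None of the 10 genes was called under any of the 13 alternatives, and the lowest adjusted p was 0.0644 (SHN1 without replicate 1 labelled VGD1). The count over all genes was 139 without the filter, 421 with DESeq2 and 194 with the replicate block, against 82 in the main comparison, and 4 to 202 when 1 library was left out. In the wider list 1 gene was called by DESeq2 and 0 to 2 when 1 library was left out. Log2 fold changes near 0 turned sign: LTPG1 was 0.031 with library totals, 0.0094 without the filter, 0.0016 with DESeq2, 4.2e-04 with limma-voom and 0.0020 with the replicate block; CER3 was 0.0071 with library totals; FDH was -0.0027 with limma-voom and -0.0015 with the replicate block. Leaving out 1 library gave -0.11 to 0.10 for FDH, -0.19 to 0.13 for CER3, -0.45 to 0.090 for CER4, -0.15 to 0.018 for CER5, -0.086 to 0.035 for ABCG11 and -0.049 to 0.094 for LTPG1. CER1, CER6, LACS2 and SHN1 kept a log2 fold change below 0 in all 13, from -0.21 to -0.091 for CER1, -0.23 to -0.046 for CER6, -0.43 to -0.17 for LACS2 and -0.77 to -0.094 for SHN1. With library totals 0 of the 10 had an unadjusted p under 0.05. With coding length 6 of 10 genes kept their rank by level. The cause of these changes was not tested. Replicate numbers did not pair the libraries: deviations of same-numbered libraries correlated at -0.01, 0.03 and 0.09, so the replicate block is no stronger evidence than the unblocked comparison. With 3 libraries a group, the 95% intervals of CER4 and SHN1 allow changes of 0.569 to 1.41-fold and 0.482 to 1.28-fold. Changes within those ranges were not excluded.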
